A study of Mus musculus with 9 samples.

Results

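The genes described here are the 9 mouse genes that encode the vascular endothelial growth factor (VEGF) ligands Vegfa, Vegfb, Vegfc and Pgf, the receptors Kdr, Flt1 and Flt4, and the coreceptors Nrp1 and Nrp2. They were chosen by name, as the rows of the count files whose Ensembl identifier maps to these symbols. All 9 were found among 53465 genes, and all 9 had enough reads to be among the 13825 genes tested. RNA from NOD-SCID mouse hearts was sequenced in 9 libraries, 3 in each of 3 groups. The tissue is described as infarct border zone, although sham hearts had no ligation and so no infarct. One group had sham surgery, one had ligation of a coronary artery, and one had the ligation plus implanted cells that the labels call FOXO3-GE-MPCs; the last is called the cell group below.

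NOD-SCID mice, which lack functional B and T lymphocytes, were the hosts in every group, so the comparisons leave out much of the adaptive immune response. The labels give no age, sex, interval after surgery or cell dose, and they do not name the species of the implanted cells. Ligated hearts given unmodified cells were not analysed here. Reads from implanted cells and from the host heart cannot be told apart in these counts. For replicates 2 and 3 of the cell group 1 label reads FOXO4 or FOXO5, but their titles and treatment labels read FOXO3 and were followed.

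In the VEGF system, secreted ligands bind receptor tyrosine kinases that sit mainly on endothelial cells. Vegfa binds Kdr (VEGF receptor 2), the main signalling receptor for endothelial growth and permeability, and Flt1 (VEGF receptor 1), which binds it tightly but signals weakly and can act as a decoy. Among the receptor kinases Vegfb and Pgf bind Flt1 only, and Vegfc acts through Flt4 (VEGF receptor 3) on lymphatic endothelium. The neuropilins Nrp1 and Nrp2 present ligands to the receptors and also bind class 3 semaphorins. In the heart, cardiomyocytes are a major source of Vegfa and Vegfb.

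Libraries held 4549268 to 7515052 reads assigned to genes. Sham replicates 1 and 2 share a name stem in the file headers, as do ligation replicates 2 and 3, so they may come from 1 source each. Their counts differed by more than sampling noise (mean chi-square per gene 3.73 and 2.23, against 1.93 to 3.49 for the other pairs within a group), so neither pair is 1 library deposited in duplicate. Whether such a pair comes from 1 animal or several was not tested. All 9 libraries were kept as separate samples, and p-values would be too small if a pair shared an animal. With each pair summed, 5 in place of 6 members passed after ligation, 3 passed either way between the ligated groups, and 6 in place of 7 passed with cells against sham. Of 14054 genes tested in that fit, 4571, 1101 and 5409 passed in these comparisons, in that order. Nothing in the labels says that replicates were separate animals, and p-values measure the spread between these libraries. All 10 cardiomyocyte markers were detected, at summed levels of 62747 to 64578 CPM in sham. CPM here are counts scaled to a common library size, with TMM factors that centre the typical gene. None of the marker lists used here had a gene without reads.

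Levels were compared between genes as CPM per kilobase of annotated exon. In sham hearts the ligand Vegfb stood highest at 182 ± 7.13 CPM per kilobase (SD, n = 3), followed by Vegfa at 76.4 ± 2.56, Kdr at 57.2 ± 0.619, Flt1 at 29.9 ± 0.182, Nrp1 at 19.3 ± 0.347 and Nrp2 at 8.73 ± 0.534. Pgf, Vegfc and Flt4 came last at 6.53, 6.45 and 6.38 CPM per kilobase, and their library ranges overlapped. The first 6 places in this order were the same in the ligation and cell groups. In ligated hearts the gap between Kdr (30.7 ± 1.38 CPM per kilobase) and Flt1 (24.0 ± 0.348) was narrower, and with cells Nrp2 and Vegfc overlapped at 8.56 and 8.48. The order depends on the exon length, which joins all annotated transcripts (9030 bases for Kdr, 13504 for Flt1). In CPM without that length, Flt1 stood above Kdr in each ligation library (319 to 327 against 266 to 290.5 CPM). Gene counts do not separate isoforms, so soluble Flt1, a secreted form that binds ligand, cannot be told from the membrane receptor, nor can the heparin-binding forms of Vegfa be told apart.

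The promoters of Vegfa, Kdr and Flt1 are shown because these members fell after ligation while only one of them, Kdr, was higher again with cells. Each line gives the 250 bases before the first RefSeq start in the table (GRCm38.p6, minus strand for all 3), read 5′ to 3′ along the gene. Vegfa lies at chr17:46032378-46032627, Kdr at chr5:75978456-75978705 and Flt1 at chr5:147726012-147726261. Capitals mark matches on either strand to the GC box, GGGCGG. They also mark matches on either strand to the ETS type motif, AGGAAG.
Vegfa: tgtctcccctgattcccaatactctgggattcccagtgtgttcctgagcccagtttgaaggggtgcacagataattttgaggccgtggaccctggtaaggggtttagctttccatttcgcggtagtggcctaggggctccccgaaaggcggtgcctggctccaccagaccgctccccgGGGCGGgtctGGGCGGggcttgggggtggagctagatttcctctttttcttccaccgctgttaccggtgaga
Kdr: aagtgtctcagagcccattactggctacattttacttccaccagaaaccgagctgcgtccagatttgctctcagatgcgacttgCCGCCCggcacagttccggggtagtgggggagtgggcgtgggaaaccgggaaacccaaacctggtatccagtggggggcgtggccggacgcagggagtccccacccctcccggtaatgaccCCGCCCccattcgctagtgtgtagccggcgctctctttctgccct
Flt1: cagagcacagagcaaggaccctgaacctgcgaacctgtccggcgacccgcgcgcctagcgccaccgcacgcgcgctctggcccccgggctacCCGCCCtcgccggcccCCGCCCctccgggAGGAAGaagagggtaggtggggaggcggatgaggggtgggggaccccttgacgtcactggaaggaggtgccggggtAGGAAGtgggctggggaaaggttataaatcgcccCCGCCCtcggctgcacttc
Vegfa and Kdr each hold 2 GC boxes and no AGGAAG in this window, and Flt1 holds 3 GC boxes and 2 AGGAAG, none of them overlapping. Of 32851 promoters of this length in the table, 32.7% hold GGGCGG and 29.5% hold AGGAAG. The hypoxia response core, ACGTG, is on either strand in 16.6% of all promoters. The FOX type motif, GTAAACA, is in 3.17%, and neither is in the 3 sequences above. The table has a second Vegfa start, whose window at chr17:46025164-46025413 holds 1 ACGTG, 211 bases before that start. These matches describe the letters of the window only.

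The first comparison asked what coronary ligation did to these 9 genes. The ligand Vegfd is not among them and rose after ligation (log2 fold change 1.68), as given below. After ligation 6 of the 9 genes fell and none rose: the ligands Vegfa, Vegfb and Pgf, the receptors Kdr and Flt1, and the coreceptor Nrp1. Kdr fell most, to 0.538 of its sham level. Vegfc, Flt4 and Nrp2 did not pass the test. Over all tested genes 38.2% passed an adjusted p of 0.05 in edgeR's quasi-likelihood test, 18.0% lower and 20.1% higher. The median log2 fold change of the 9 members was -0.32 and that of all tested genes 0.01. In bulk tissue, fewer cells of a type and less RNA per cell cannot be told apart.

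**Figure D1:**
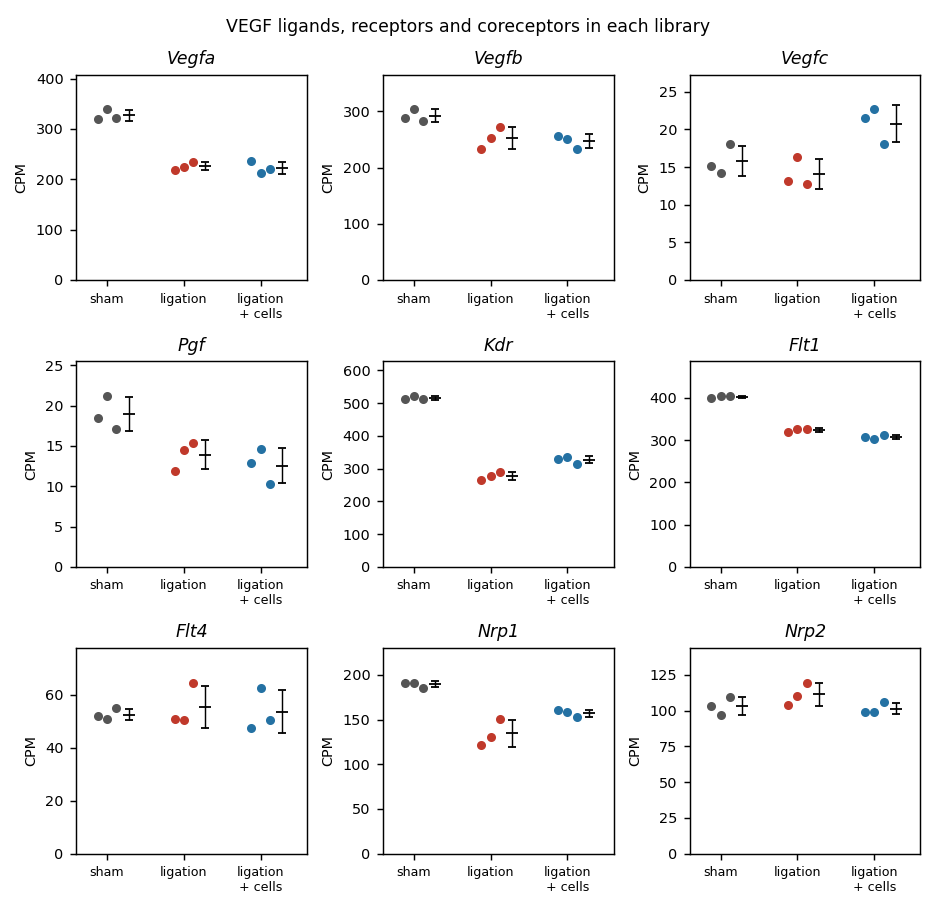
CPM (vertical axes, starting at 0) of the 9 genes in every library, by group (horizontal axes). Points are libraries, and the dash with whiskers is the mean ± SD of 3 libraries. Kdr shows the widest gap between sham (513 to 523 CPM) and ligation (266 to 290.5 CPM), while the groups overlap for Flt4 and Nrp2.

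Vegfa, the main angiogenic ligand, was at 321, 340.2 and 322 CPM in the sham libraries and at 219, 225 and 234 CPM after ligation. The lowest sham library was thus well above the highest ligation library, and the log2 fold change was -0.53 (SE 0.0527, edgeR adjusted p 7.16e-08). Vegfb, a ligand of Flt1 known for roles in coronary vessels and myocardial metabolism, was at 289, 305 and 283 CPM in sham and 233, 253 and 272 CPM after ligation. Its groups also did not overlap, but the decrease was small, with a log2 fold change of -0.21 (SE 0.0585, edgeR adjusted p 0.00822). Pgf, placental growth factor, was at 18.5, 21.2 and 17.1 CPM in sham and 11.9, 14.5 and 15.4 CPM after ligation, where its log2 fold change was -0.43 (SE 0.150, edgeR adjusted p 0.0297). The Pgf call was lost without sham replicate 1 (edgeR adjusted p 0.0509), sham replicate 2 (0.131), ligation replicate 1 (0.103) or ligation replicate 2 (0.0588), with libraries summed by header stem (0.0510), and with DESeq2 (adjusted p 0.0538). Vegfc was at 14.2 to 18.1 CPM in sham and 12.7 to 16.4 CPM after ligation, overlapping groups with a log2 difference of -0.16 (SE 0.149, edgeR adjusted p 0.421).

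Kdr was at 513, 523 and 513 CPM in sham and 266, 277 and 290.5 CPM after ligation. All 3 ligation libraries lay below 300 CPM and all 3 sham libraries above 500 CPM (log2 fold change -0.89, SE 0.0475, edgeR adjusted p 6.52e-12). Flt1 was at 400.5, 405 and 404 CPM in sham and 319, 326 and 327 CPM after ligation. The spread within either group was a few CPM, and the decrease had a log2 fold change of -0.32 (SE 0.0438, edgeR adjusted p 7.35e-06). Flt4 was at 50.7 to 54.9 CPM in sham. In ligation it was at 50.9 and 50.5 CPM in replicates 1 and 2 and 64.6 CPM in replicate 3, so the groups overlapped (log2 difference 0.09, SE 0.105, edgeR adjusted p 0.551), and without replicate 3 the difference was -0.07.

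The coreceptor Nrp1 was at 191, 191 and 185 CPM in sham and 122, 131 and 151 CPM after ligation. The ligation libraries spread over a wider range than the sham libraries but did not reach them, and the log2 fold change was -0.49 (SE 0.0658, edgeR adjusted p 5.04e-06). Nrp2 was at 97.0 to 109.7 CPM in sham and 104 to 119.8 CPM after ligation, with a log2 difference of 0.11 (SE 0.0673, edgeR adjusted p 0.205). Fold changes are relative to the median gene as set by TMM scaling. Scaling by library totals alone moves the median gene up by 0.19 on the log2 scale. Under that scaling the differences of Vegfb and Pgf were -0.02 and -0.24 and did not pass (edgeR adjusted p 0.843 and 0.218), Vegfc turned to 0.03, and Flt4 (0.28) and Nrp2 (0.30) passed as higher (edgeR adjusted p 0.0392 and 0.00138). Vegfa, Kdr, Flt1 and Nrp1 passed as lower under each of the 11 other settings and in each fit without 1 library, but with library totals alone Flt1 was at -0.13 (edgeR adjusted p 0.0258), Nrp1 at -0.30 and Vegfa at -0.34.

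Markers of other cell types moved in the same comparison, and their part in these differences was not tested. Of all tested genes 20.1% were higher and 18.0% lower there. Of 20 endothelial markers 16 were lower after ligation and 1 higher, and their summed level went from 3365 to 3597 CPM in sham to 2499.8 to 2682 CPM. Of 10 cardiomyocyte markers 7 were lower and 1 higher, with sums of 62747 to 64578 CPM in sham and 49524 to 51867 CPM after ligation. Macrophage markers were higher in 7 of 10 and lower in 1 (715 to 767 CPM in sham, 1227 to 1259.7 CPM in ligation). Fibroblast markers were higher in 5 of 8 and lower in 1 (2236 to 2300.5 and 3818.5 to 3887 CPM), and mesothelial markers in 5 of 5 (30.95 to 42.9 and 194 to 238 CPM). Of 5 tested lymphatic markers 3 were higher and none lower, at sums of 127 to 136 and 143 to 146 CPM. Pericyte markers were lower in 5 of 8 and higher in 2 (1402 to 1431 and 1026 to 1056 CPM), and erythroid markers higher in 4 of 5 and lower in 1 (871 to 919 and 1496 to 1595 CPM). Smooth muscle markers were lower in 3 of 4 tested (679.9 to 723 and 506 to 529.9 CPM), neutrophil markers in 2 of 4 tested (39.2 to 45.9 and 14.9 to 21.4 CPM), and atrial markers in 3 of 4 with 1 higher (474 to 564 and 841 to 1608 CPM). The atrial sum rose through Nppa alone (log2 fold change 3.06), while Sln, Myl7 and Myl4 were lower. Skeletal muscle markers were higher in 3 of 5 tested (1561 to 1629 and 1844 to 1913 CPM). With library totals alone 13 endothelial markers were lower and 2 higher, and 4 cardiomyocyte markers were lower and 4 higher. Under that scaling 9.74% of all tested genes were lower and 35.9% higher. Mitochondrially encoded genes took 19.1% to 19.9% of gene counts in sham, 12.5% to 13.9% in ligation and 14.3% in each cell library.

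The second comparison asked how ligated hearts that received cells differed from ligated hearts alone. With cells, Kdr, Nrp1 and Vegfc were higher and no member was lower. The increases were 1.18-fold for Kdr, 1.16-fold for Nrp1 and 1.47-fold for Vegfc. These are 3 of 9 members, where 4.19% of all tested genes were higher, 5.69% lower and 9.87% passed in either direction (edgeR, adjusted p under 0.05). The median log2 fold change of the members was -0.04 and that of all tested genes 0.00. The ligands Vegfa and Vegfb differed by less than 0.04 on the log2 scale.

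Kdr was at 330.2, 336 and 315 CPM in the cell group. Each of these values was above the highest ligation library and below the lowest sham library, and the log2 fold change against ligation was 0.24 (SE 0.0475, edgeR adjusted p 0.00225). The increase passed in each of 9 fits that left out 1 library, with log2 fold changes of 0.20 to 0.27. Nrp1 was at 160.3, 158 and 153 CPM with cells, where the ligation libraries reached 151 CPM. The 2 groups thus barely separated, and the log2 fold change was 0.22 (SE 0.0658, edgeR adjusted p 0.0381). That call was lost without sham replicate 1 (edgeR adjusted p 0.0521), ligation replicate 1 (0.159), ligation replicate 2 (0.156), or cell replicate 1 (0.122), 2 (0.0943) or 3 (0.0629). It was also lost with library totals alone (edgeR adjusted p 0.0967), upper-quartile factors (0.0509) and a 2-group fit (0.0512), and with a replicate block (0.0549).

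Vegfc, the lymphatic growth factor, was at 21.6, 22.7 and 18.01 CPM with cells, each above the highest ligation library at 16.4 CPM. These values rest on 125 to 164 reads with cells and 62 to 113 reads in ligation. Its log2 fold change was 0.56 (SE 0.141, edgeR adjusted p 0.0135), and the call was lost without ligation replicate 3 (edgeR adjusted p 0.0915) or cell replicate 2 (0.0587). Its receptor Flt4 was at 47.4, 62.7 and 50.6 CPM and overlapped ligation (log2 difference -0.06, SE 0.103, edgeR adjusted p 0.793). Without cell replicate 2 only Kdr of the 9 members passed.

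**Figure D2:**
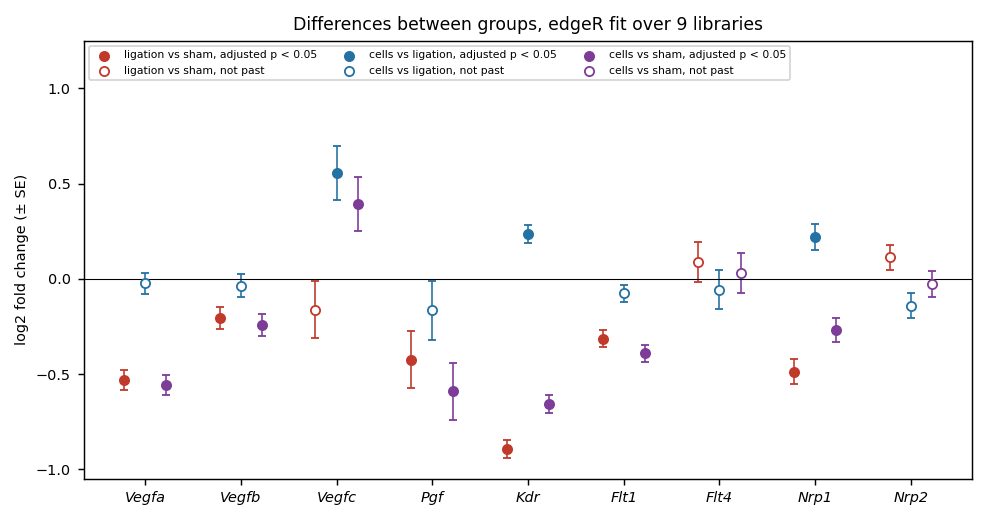
Log2 fold change (vertical axis) of each gene (horizontal axis) in 3 comparisons, with whiskers of ± SE from the edgeR fit over 9 libraries. Filled points passed an adjusted p of 0.05 and open points did not. Kdr and Nrp1 lie below 0 in ligation against sham and above 0 in cells against ligation, and Vegfc is above 0 in both comparisons of the cell group.

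The remaining members did not pass in this comparison. Vegfa was at 236, 212 and 219.7 CPM with cells, a log2 difference of -0.02 (SE 0.0530, edgeR adjusted p 0.834). Vegfb was at 257, 251 and 233 CPM (-0.04, SE 0.0585, edgeR adjusted p 0.776), and Pgf at 12.9, 14.6 and 10.2 CPM (-0.17, SE 0.155, edgeR adjusted p 0.587). Flt1 was at 308, 302 and 313 CPM. All 3 of these values were below the lowest ligation library, but the log2 difference of -0.08 (SE 0.0438) did not pass (edgeR adjusted p 0.319). Nrp2 was at 99.3, 99.0 and 106 CPM, with a log2 difference of -0.14 (SE 0.0667, edgeR adjusted p 0.213).

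In the same comparison all 10 macrophage markers were lower with cells, at summed levels of 502 to 522 CPM against 1227 to 1259.7 CPM in ligation. Of all tested genes 4.19% were higher and 5.69% lower there. Erythroid markers were lower in 4 of 5 (663 to 679.6 against 1496 to 1595 CPM), and atrial markers were higher in 3 of 4 (1569 to 2178 against 841 to 1608 CPM). Endothelial markers summed to 2538 to 2619.8 CPM with cells, within the ligation range, and 2 of 20 were higher and 3 lower. Those 5 became 2 without ligation replicate 3, and 3 without ligation replicate 2 or any 1 cell library. Neutrophil markers were lower in 3 of 4 tested (5.76 to 6.80 against 14.9 to 21.4 CPM). Pericyte markers were lower in 3 of 8 and higher in none (966 to 999.6 against 1026 to 1056 CPM), but in 0 without ligation replicate 2 and 1 without ligation replicate 3. Fibroblast markers were lower in 2 of 8 (3577 to 3685 against 3818.5 to 3887 CPM) and mesothelial markers in 2 of 5 (162 to 169.8 against 194 to 238 CPM). Skeletal muscle markers were higher in 1 and lower in 2 of 5 tested (2454 to 2517 against 1844 to 1913 CPM). Cardiomyocyte markers were higher in 1 and lower in 2 of 10 (49030.4 to 50059.9 against 49524 to 51867 CPM), or lower in 1 without cell replicate 1. Of 4 tested smooth muscle markers 1 was higher (561 to 566 against 506 to 529.9 CPM), but none without sham replicate 1 or any 1 ligation or cell library. Of 6 lymphatic markers 5 were tested, of which 2 were lower and none higher, at sums of 126 to 143 CPM with cells and 143 to 146 CPM in ligation, and 1 was lower without ligation replicate 2 or 3 or cell replicate 1 or 2. The lymphatic marker Lyve1 was lower with cells (log2 fold change -0.62, SE 0.101, edgeR adjusted p 0.000284), and Prox1, the lymphatic transcription factor, was at 51.2 ± 2.68 CPM with cells and 43.4 ± 1.84 CPM in ligation (edgeR adjusted p 0.0522). The part of these shifts in the Kdr, Nrp1 and Vegfc differences was not tested.

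Set against sham, hearts with cells were lower in 6 members (Vegfa, Vegfb, Pgf, Kdr, Flt1 and Nrp1) and higher in Vegfc. Passing genes were 40.9% of all tested, 20.0% lower and 21.0% higher. Both this comparison and the first use the sham libraries, and both this and the second use the cell libraries. Kdr remained lower than in sham by -0.66 on the log2 scale (SE 0.0471, edgeR adjusted p 5.02e-10) and Nrp1 by -0.27 (SE 0.0650, edgeR adjusted p 0.00230). Vegfa, Flt1, Pgf and Vegfb had log2 fold changes of -0.56, -0.39, -0.59 and -0.24, the largest edgeR adjusted p among these being 0.00341. Scaled by library totals alone, Vegfb (-0.08, edgeR adjusted p 0.290) and Nrp1 (-0.11, 0.204) missed the threshold, and Flt1 passed at -0.23.

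Vegfc against sham had a log2 fold change of 0.39 (SE 0.140, edgeR adjusted p 0.0299). The groups overlapped, since cell replicate 3 at 18.01 CPM lay below sham replicate 3 at 18.1 CPM. The call was lost without sham replicate 1 (edgeR adjusted p 0.0845), sham replicate 2 (0.120), cell replicate 1 (0.0777) or cell replicate 2 (0.104), with libraries summed by header stem (0.0618), and with DESeq2 (adjusted p 0.0682). Flt4 and Nrp2 did not pass, at log2 differences of 0.03 (SE 0.104, edgeR adjusted p 0.847) and -0.03 (SE 0.0673, edgeR adjusted p 0.767). The sign of the Nrp2 difference turned to 0.13 with library totals alone.

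In cells against sham 16 of 20 endothelial markers were lower and none higher (2538 to 2619.8 CPM with cells, 3365 to 3597 CPM in sham). Of all tested genes 20.0% were lower and 21.0% higher there. Cardiomyocyte markers were lower in 7 of 10 and higher in 1, at sums of 49030.4 to 50059.9 against 62747 to 64578 CPM. With library totals alone 5 were lower and 3 higher, where 12.3% and 33.4% of all tested genes were. Macrophage markers were lower in 8 of 10 (502 to 522 against 715 to 767 CPM), neutrophil markers in 4 of 4 tested (5.76 to 6.80 against 39.2 to 45.9 CPM), pericyte markers in 5 of 8 (966 to 999.6 against 1402 to 1431 CPM) and erythroid markers in 3 of 5 (663 to 679.6 against 871 to 919 CPM). Atrial markers were higher in 4 of 4 (1569 to 2178 against 474 to 564 CPM), mesothelial markers in 5 of 5 (162 to 169.8 against 30.95 to 42.9 CPM) and fibroblast markers in 5 of 8 (3577 to 3685 against 2236 to 2300.5 CPM). Smooth muscle markers were lower in 3 of 4 tested (561 to 566 against 679.9 to 723 CPM). Skeletal muscle markers were higher in 1 and lower in 1 of 5 tested (2454 to 2517 against 1561 to 1629 CPM), close to the shares of all tested genes. The lower one was lost without sham replicate 2 or 3 or any 1 cell library. Of 5 tested lymphatic markers 3 were higher and 1 lower. The part of these shifts in the members' differences was not tested.

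The balance between members within each library restates the differences above in a form that does not depend on the scaling between libraries, and is no further evidence for them. The log2 ratio of Flt1 to Kdr counts was -0.36 ± 0.0102 (SD, n = 3) in sham, 0.22 ± 0.0468 in ligation and -0.09 ± 0.0740 with cells. Every ligation library lay above every cell library, and every cell library above every sham library. An exact permutation test (two-sided) gave p = 0.1 for each pair of groups, the smallest that 3 against 3 libraries allow. The log2 ratio of Nrp2 to Nrp1 followed the same order, at -0.87 ± 0.112 in sham, -0.27 ± 0.0569 in ligation and -0.63 ± 0.0901 with cells, again with exact permutation p-values of 0.1.

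**Figure D3:**
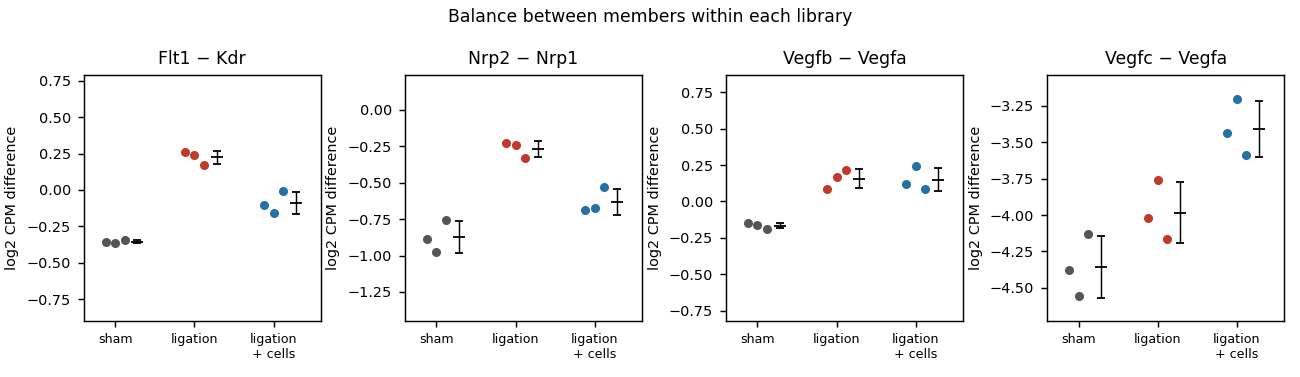
Difference in log2 CPM between pairs of genes within each library (vertical axes, the same span in each panel) by group. Points are libraries, and the dash with whiskers is the mean ± SD of 3. The Flt1 to Kdr and Nrp2 to Nrp1 differences are highest in ligation, and cells lie between ligation and sham in both.

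Among the ligands, the log2 ratio of Vegfb to Vegfa counts, which is not per length, was -0.17 ± 0.0192 in sham, 0.16 ± 0.0648 in ligation and 0.15 ± 0.0806 with cells, and the last 2 groups overlapped (exact permutation p 0.9). Per kilobase Vegfb stood above Vegfa in each group. The ratio of Vegfc to Vegfa was -4.35 ± 0.214 in sham, -3.98 ± 0.207 in ligation and -3.41 ± 0.193 with cells, where every cell library lay above every other library. The ratio of Pgf to Vegfa overlapped between all groups, with differences of -0.13 to 0.09. These 18 comparisons of ratios and the 27 comparisons with endothelial markers described next were adjusted together as 45, and the smallest adjusted p was 0.155, so none could pass 0.05.

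Since the receptors sit on endothelial cells, their levels were also set against 20 endothelial markers in the same library. Pecam1 and Cdh5, adhesion proteins of endothelial junctions, fell by 0.36 and 0.47 on the log2 scale after ligation, and the receptor kinases Tek and Tie1 by 0.66 and 0.63 (largest edgeR adjusted p 4.81e-06). Kdr minus the mean of the markers was 1.99 ± 0.0189 in sham, 1.498 ± 0.0419 in ligation and 1.74 ± 0.0478 with cells (log2 CPM, SD, n = 3), and the 3 groups did not overlap. The log2 fall of Kdr after ligation, 0.89, was larger than that of each of the 20 markers, where the lowest value was -0.85 for Icam2. Flt1 minus the markers was 1.63 ± 0.0276 in sham and 1.72 ± 0.00494 in ligation, a difference of 0.09 in the other direction. With the median of the markers as the reference that difference was 0.14, and with Pecam1 and Cdh5 alone the Flt1 difference of cells against ligation was -0.12 in place of -0.07.

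Nrp1 minus the markers was 0.54 ± 0.0328 in sham, 0.45 ± 0.135 in ligation and 0.68 ± 0.0285 with cells, and the sham and ligation groups overlapped. Nrp2 stood higher against the markers in ligation than in sham, at 0.18 ± 0.0780 and -0.33 ± 0.118, and Flt4 likewise, at -0.83 ± 0.185 and -1.30 ± 0.0846. Neither gene passed by itself (log2 differences 0.11 and 0.09), while the median log2 fold change of the markers was -0.41. For the pairs that did not overlap the exact permutation test gave that same smallest p of 0.1. With the mean of Pecam1 and Cdh5 alone as the reference, the Kdr difference of cells against ligation was 0.19 in place of 0.24.

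**Figure D4:**
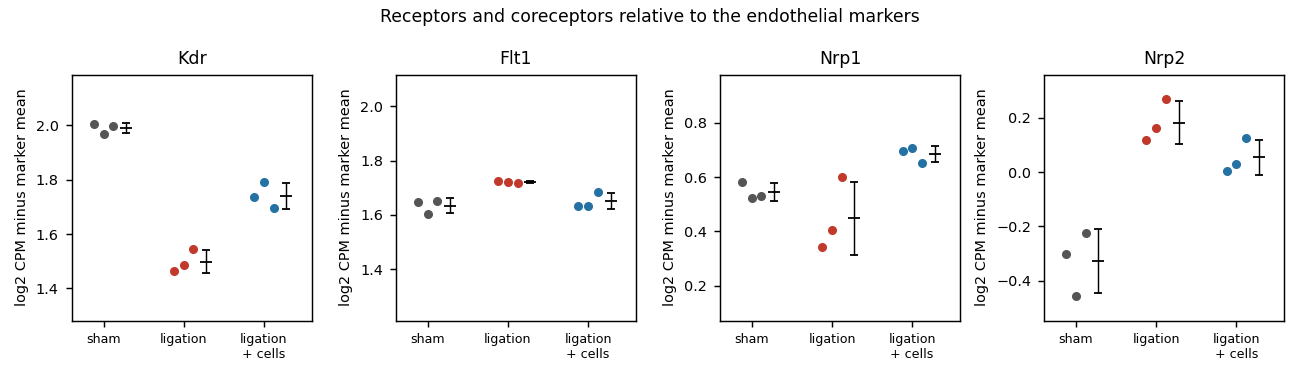
Log2 CPM of each gene minus the mean log2 CPM of 20 endothelial markers in the same library (vertical axes, the same span in each panel) by group. Points are libraries, and the dash with whiskers is the mean ± SD of 3. Kdr is lowest in ligation with cells in between, whereas the Flt1 means lie between 1.63 and 1.72.

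Genes of the wider pathway were read from lists of names. Of 37 tested genes of VEGF signal transduction, 7 were higher and 6 lower after ligation, where 20.1% and 18.0% of all tested genes were, and the median log2 fold change was 0.04. With library totals alone the split was 21 higher and 3 lower, where 35.9% and 9.74% of all tested genes were. Vegfd, the other lymphatic ligand, rose from 4.07 ± 1.11 to 13.2 ± 0.0412 CPM (SD, n = 3; log2 fold change 1.68, SE 0.208, edgeR adjusted p 1.67e-06) and was at 10.9 ± 1.98 CPM with cells. The kinase Src rose by 0.80 on the log2 scale, and the endothelial nitric oxide synthase Nos3 and the adaptor Nck1 fell by 0.52 and 0.49. With cells against ligation 2 genes were higher and 3 lower, where 4.19% and 5.69% of all tested genes were, a count close to that background. The heat shock protein Hspb1 (0.25) and the junction protein Ctnnb1 (0.19) were higher, while the phosphatases Ptpn6 (-1.38) and Ptprj (-1.06) and the kinase subunit Pik3r1 were lower. That count was 3 without cell replicate 1 or 3. All 10 macrophage markers were lower in the same libraries, and their part in these differences was not tested. Against sham, 9 genes were higher and 10 lower with cells (21.0% and 20.0% of all tested genes), or 20 and 6 with library totals alone (33.4% and 12.3% of all tested genes).

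Of 21 tested genes known to respond to VEGF in endothelium, 11 were higher and 4 lower after ligation (median 0.24; all tested genes 20.1% and 18.0%), or 11 and 2 with library totals alone (all tested genes 35.9% and 9.74%). Egr3 and Nr4a3, immediate-early transcription factors, rose by 2.34 and 1.31 on the log2 scale, and Apln, the apelin peptide of endothelial tips, and Aqp1, a water channel of capillaries, fell by 0.53 and 0.47. With cells against ligation 4 were higher and 3 lower (all tested genes 4.19% and 5.69%). Egr3 went from 6.35 ± 0.756 to 19.8 ± 1.27 CPM and Nr4a1 from 26.8 ± 1.95 to 69.0 ± 2.16 CPM (log2 fold changes 1.65 and 1.36, edgeR adjusted p 3.50e-06 and 2.15e-10). These factors answer many stimuli in many cell types. Aqp1 rose by 0.27 with cells, and Plvap, a protein of fenestrated endothelium, and the chemokine receptor Cxcr4 fell by 0.47 and 0.53. Against sham, 10 were higher and 6 lower with cells (all tested genes 21.0% and 20.0%), or 10 and 1 with library totals alone (all tested genes 33.4% and 12.3%).

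**Figure D5:**
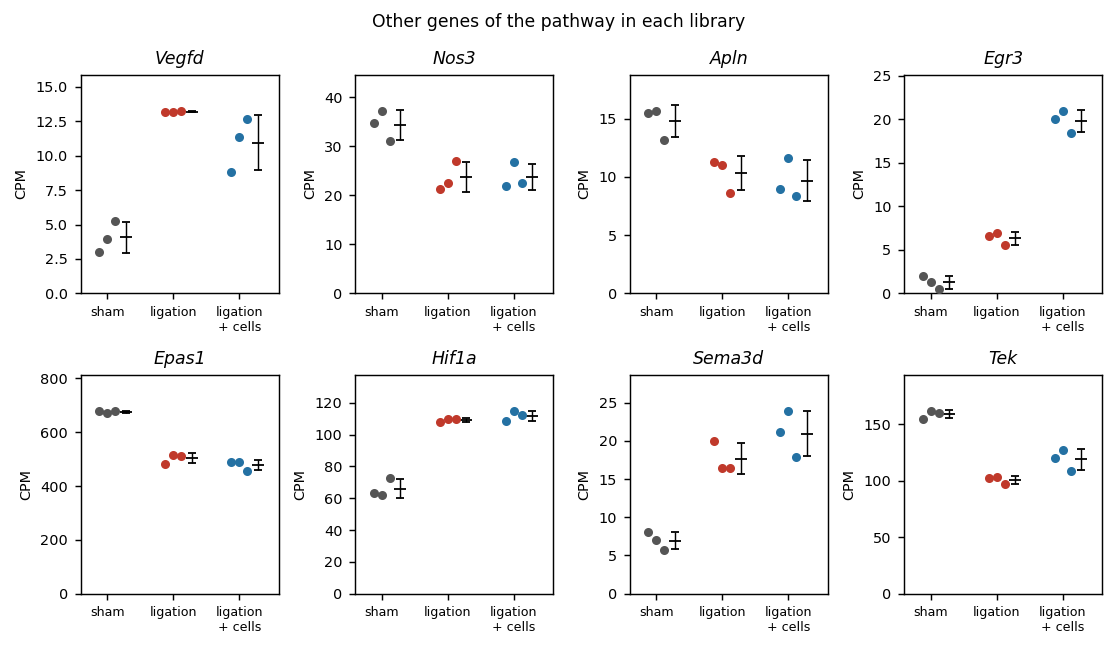
CPM (vertical axes, starting at 0) of 8 other genes of the pathway in every library, by group. Points are libraries, and the dash with whiskers is the mean ± SD of 3. Vegfd is above 13 CPM in each ligation library and below 6 CPM in each sham library, and Egr3 is highest with cells.

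The neuropilins also serve semaphorins and their plexin receptors, of which 13 were tested. After ligation 7 were higher and 4 lower (median 0.34; all tested genes 20.1% and 18.0%), or 8 and 1 with library totals alone (all tested genes 35.9% and 9.74%). Sema3d and Sema3c, secreted guidance proteins, rose from 6.94 ± 1.15 to 17.7 ± 2.04 CPM and from 14.6 ± 2.82 to 35.9 ± 3.92 CPM (log2 fold changes 1.34 and 1.29, edgeR adjusted p 2.23e-06 and 5.47e-08). The receptors Plxnb1 and Plxnd1 fell by 0.73 and 0.27. With cells none was higher and Plxna2 (-0.40) and Sema3f (-0.28) were lower than in ligation, where 5.69% of all tested genes were lower. That count of 2 ranged from 1 to 3 when single libraries were left out: it was 1 without ligation replicate 2 or 3 or cell replicate 2 or 3. Against sham, 5 were higher and 4 lower with cells (all tested genes 21.0% and 20.0%), or 6 and 3 with library totals alone (all tested genes 33.4% and 12.3%).

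In the angiopoietin and Tie system, the second receptor system of endothelium, 6 genes were tested. Tek and Tie1 fell after ligation (2 of 6, where 18.0% of all tested genes were lower), and the ligand Angpt4 rose from 1.13 ± 0.417 to 5.91 ± 1.27 CPM (log2 fold change 2.40, edgeR adjusted p 0.000102). The Angpt4 level in sham rests on few reads, since 3 counts equal 0.476 to 0.534 CPM there. With cells Tek was at 119 ± 9.25 CPM against 101 ± 3.36 CPM in ligation, a log2 fold change of 0.24 (SE 0.0637, edgeR adjusted p 0.0183), the only one of the 6 to pass there (all tested genes 9.87%). No gene of the 6 passed without ligation replicate 3, cell replicate 1 or cell replicate 2. Against sham, Tek and Tie1 were lower and Angpt4 higher with cells (all tested genes 40.9% in either direction), and with library totals alone 2 were higher and 2 lower (all tested genes 33.4% and 12.3%).

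Of 14 regulators known to act upstream of Vegfa, 5 were higher and 4 lower after ligation (median 0.07; all tested genes 20.1% and 18.0%), or 9 and 1 with library totals alone (all tested genes 35.9% and 9.74%). The 2 oxygen-sensitive subunits of the hypoxia-inducible factors moved apart: Hif1a rose from 66.0 ± 5.85 to 109 ± 1.11 CPM (log2 fold change 0.73, edgeR adjusted p 2.97e-08) and Epas1 fell from 675 ± 3.91 to 504 ± 18.0 CPM (-0.42, edgeR adjusted p 1.50e-07). Egln3, a prolyl hydroxylase that marks these subunits for decay, rose by 0.66 and fell by 0.48 with cells against ligation, the only one of the 14 to pass there (all tested genes 9.87%). Ppargc1a, a coactivator that can drive Vegfa, fell by 0.31 after ligation, and the hydroxylase Hif1an rose by 0.51. Against sham, 4 were higher and 1 lower with cells (all tested genes 21.0% and 20.0%), or 9 and 1 with library totals alone (all tested genes 33.4% and 12.3%).

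The genes whose profile over the 9 libraries lay nearest to each fallen member were found by the root mean square difference of centred log2 CPM, over 11133 genes. For Kdr these were Eci1, Slc28a2 and Dgat2, at differences of 0.0559 to 0.0574. For Vegfa they were Asb2, Ptp4a3 and Tinagl1 (0.0478 to 0.0502), and for Nrp1 they were Itga6, Peg13 and 2610008E11Rik (0.0490 to 0.0595). Flt1 lay nearest to Rplp1, Gm10039 and Samm50 (0.0280 to 0.0320), Vegfb to Chid1, Syde2 and Evl (0.0440 to 0.0454), and Pgf to Dennd3, Art5 and Parp10 (0.0892 to 0.108). Likeness here is of level changes in these libraries only.

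In the GENCODE M21 annotation of GRCm38, Vegfa (ENSMUSG00000023951) lies at chr17:46016993-46032369 and Kdr (ENSMUSG00000062960) at chr5:75932827-75978458, both on the minus strand. Flt1 (ENSMUSG00000029648) lies at chr5:147561604-147726011 on the minus strand, Nrp1 (ENSMUSG00000025810) at chr8:128358604-128503363 and Vegfc (ENSMUSG00000031520) at chr8:54077606-54187096, both of these on the plus strand. No member shares more than 0.768% of its 31-base words with another gene. Only Nrp1 overlaps exons of another gene, over 80 bases of the microRNA gene Mir1903.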

How the data were processed

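RNA-seq of heart border zone was deposited as 1 file per library. Each deposited file holds raw counts by Ensembl gene, with closing lines under the names htseq-count uses. Build mm10 is named in the submitters' processing notes; aligner, counter, strand setting and annotation release are not given in the sources used here. Per the labels' protocols, TRIzol was used for RNA and an NEBNext Ultra kit for the libraries. Reads given to no gene (12.3% to 13.6% of those listed) were left out. Symbols came from GENCODE M21, which matched 53360 of 53465 identifiers.

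Counts were filtered with filterByExpr, scaled with TMM factors and fitted with edgeR 4.0.16 in R 4.3.3, as 1 model with a mean per group over 9 libraries. P-values were adjusted over 13825 genes by the Benjamini-Hochberg method. SE is the log2 fold change divided by the square root of F. CPM use TMM factors, and 3 counts equal 0.375 to 0.639 CPM. That floor covers counting error only. Log2 CPM for ratios used a prior count of 2, with exact permutation tests. Alternatives covered scaling, filters, DESeq2 1.42.0, limma 3.58.1 (voom), a replicate block, 2-group fits and each library left out. The pipeline was tested on simulated data. In each list the rule named the 2 largest passing changes per direction with a mean of at least 1 CPM and groups that did not overlap; Pecam1, Cdh5, Tek and Tie1 were always named. Pik3r1 and Prox1, and in 1 comparison each Aqp1 and Hif1an, were named outside it after their values were seen. Members and lists were chosen with earlier results of these data known.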

Additional observations from a re-analysis of the deposited data

How the results depend on the processing

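Totals of passing members stayed within 1.5 times of those given under all alternatives in both comparisons with sham, but with library totals alone the 6 after ligation were 2 higher and 4 lower, in place of 0 and 6. In cells against ligation 1 member passed at an adjusted p under 0.01, in place of 3, and fits without 1 library gave 1 to 3. At that threshold 739 of all tested genes passed there, against 1365. Library totals alone changed the share of higher calls from 52.7% to 78.7% in ligation against sham, from 42.4% to 32.0% in cells against ligation and from 51.2% to 73.1% in cells against sham, moving the median gene by 0.19, -0.03 and 0.16. That scaling turned Vegfc to 0.0259 in ligation against sham and Nrp2 to 0.131 in cells against sham, and gave 24 in place of 13 signal transduction genes in ligation against sham and 10 in place of 5 upstream regulators in cells against sham.

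In cells against ligation, 1 in place of 2 semaphorin and plexin genes passed with DESeq2, with the replicate block and with libraries summed by header stem, the last chosen after seeing the data; fits without 1 library gave 1 to 3. For the signal transduction list they gave 3 to 5, and for the angiopoietin and Tie list 0 to 1. None of these causes was tested.

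Fits without 1 library ranged across 0 for members that had not passed: -0.0682 to 0.159 (Flt4, ligation against sham), -0.0997 to 0.111 (Flt4, cells against sham), -0.0743 to 0.0166 (Nrp2, cells against sham), and in cells against ligation -0.0686 to 0.00851 (Vegfa), -0.0903 to 0.0229 (Vegfb) and -0.190 to 0.0809 (Flt4). Replicate numbers did not pair the samples: deviations of same-numbered libraries correlated at -0.123 to 0.144, over 0.1 in 1 of 9 pairs, and 4 of 9 libraries correlated best with their own number. With the replicate block 5134, 1230 and 5511 genes passed in the 3 comparisons, and 6, 2 and 7 members, Nrp1 in cells against ligation being the one lost (edgeR adjusted p 0.0549). Depth limits Vegfc and Pgf, with 56 to 164 reads a library.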
